A study of Schizophyllum commune with 14 samples.

Results

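In the split gill mushroom Schizophyllum commune, 37 of the 14681 genes in the authors' series table were low in the stage 1 primordium alone, by a set margin, and at nearly even levels at the other stages sampled. The genes were chosen from that table, whose unit is log2 RPKM (reads per length of transcript and size of library, with a further factor per library). A stage level is the mean of its libraries' log2 values. A gene was taken when its means in vegetative mycelium, in stage 2 primordium, in young and in expanded fruiting body were each at least 2, lay within 1 of each other, and were each at least 1.2 above its stage 1 primordium mean. The levels used for that choice are given below as a description, without tests.

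The 14 libraries were made from poly(A) RNA of a dikaryon of strain H4-8, formed from the monokaryons H4-8a and H4-8b and grown on MM medium. All 5 stages share this dikaryon and its culture, with 5 days in the dark at 30 °C followed by 10 days at 25 °C with 12 hours of light a day. Stage 1 primordia were fruiting body initials of up to 2 mm, stage 2 primordia had a pit at the tip and were 3 to 4 mm tall, young fruiting bodies were cups of 5 to 7 mm, and structures called fruiting body had expanded fully. Each stage had 3 libraries, except stage 2 primordium with 2, numbered 2 and 3. The labels name whole structures of this 1 dikaryon, so a library mixes the cell types of its stage, and they do not say whether the libraries of a stage came from separate cultures.

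In mushroom-forming fungi a dikaryotic mycelium, whose cells each carry a pair of unlike nuclei, makes fruiting bodies in answer to light and other cues. Hyphae first knit into small dense aggregates and then into primordia, in which the tissues of the fruiting body are laid out before it expands. In Schizophyllum commune the primordium opens into a cup lined with split gills. The genes chosen here had lower mean RNA levels in the smallest primordia than in the mycelium or in the larger structures. The mycelium is listed with the same days of culture as the other stages. The stages are thus ordered by structure, and a change over time was not tested. The gene reference used here gives locus tags for all 37 genes and a symbol for 0 of them, with no product names, so the genes are called by locus tag and no roles are stated. For 32 of the 37 the locus tag rests on a number offset between files and reference that was inferred from the files.

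Each library held 13708387 to 24052213 unique reads. The vegetative mycelium libraries were read on a flow cell of their own, so in a comparison with mycelium the flow cell and the stage cannot be told apart, whereas the other 11 libraries share a flow cell. Stage 2 primordium replicate 2 stood apart with a TMM scaling factor (a library's correction for composition) of 0.548, against 0.86 to 1.21 in the others. SC6, a hydrophobin of fruiting dikaryons whose match to the files rests on an older tag, had a mean log2 RPKM of -0.44 in mycelium and 8.46 in stage 1 primordium. Its mean was 1.91 in stage 2 primordium, 3.97 in the young and 5.94 in the expanded fruiting body.

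Of the genes in the table, 8901 had means of at least 2 in each of the 4 other stages, and 4480 of those also lay within 1 of each other. Among these flat genes, stage 1 primordium was the lowest stage by any amount in 927, and the gap of 1.2 left 37. The mirror pattern, higher only in stage 1 primordium by the same amounts, was met by 25 genes. With another stage as the low point, the same rule found 199 genes for vegetative mycelium, 78 for stage 2 primordium, 0 for young fruiting body and 6 for fruiting body. The gap has no natural break at its threshold. SCHCODRAFT_02121093, SCHCODRAFT_01152563 and SCHCODRAFT_02682261 lay just inside at gaps of 1.201, 1.21 and 1.21, and SCHCODRAFT_02482018, SCHCODRAFT_02704083 and SCHCODRAFT_02642364 just outside at 1.19 each. Gaps between 1 and 1.2 were held by 37 flat genes, those just outside included.

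The gap, from the lowest of the 4 other stage means down to stage 1 primordium, ran from 1.201 to 2.41 with a median of 1.41, a ratio of 2.66 in RPKM. Against the average of the 4 other stages, the stage 1 primordium mean was lower by 1.37 to 2.87 on the log2 scale, with a median of 1.76. It was 1.5 or more below the lowest other stage in 12 genes. Most of the genes were expressed at modest levels: the average of the 4 other stages ran from 2.26 to 6.73 with a median of 3.63, and was under 4 in 26 genes. In stage 1 primordium 19 of the 37 had means under 2. Since the libraries come from whole structures, fewer cells of a type and less RNA per cell cannot be told apart.

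The shift was seen in each stage 1 primordium library, to unequal degrees. Relative to the average of the 4 other stages, the median of the 37 genes was -1.88 in replicate 1, -1.99 in replicate 2 and -1.32 in replicate 3. Over the 8901 genes at the level minimum the same medians were 0.05, 0.06 and 0.08. Among the 11 other libraries the median of the 37 ran from -0.44 in young fruiting body replicate 2 to 0.44 in fruiting body replicate 1. All 37 genes lay below the lowest other stage mean in each of the 3 stage 1 primordium libraries. Of the genes at the level minimum 22.9%, 24.5% and 18.6% did so in replicates 1, 2 and 3. The rule averaged these 3 libraries to choose the genes, so the values are a description.

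**Figure D1:**
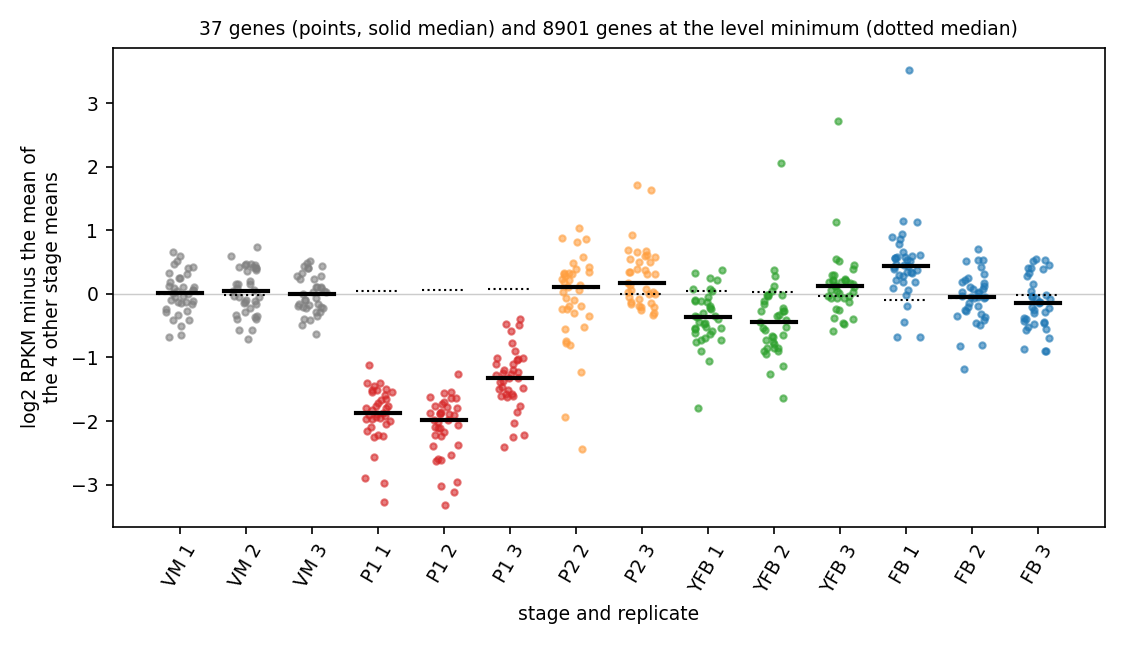
Each point is 1 of the 37 genes, plotted as log2 RPKM in a library minus the mean of the gene's vegetative mycelium (VM), stage 2 primordium (P2), young (YFB) and expanded (FB) fruiting body means; the x axis gives stage and replicate, P1 being stage 1 primordium. Solid bars are medians of the 37 and dotted bars medians of the 8901 genes at the level minimum: the 3 stage 1 primordium libraries sit at -1.88, -1.99 and -1.32, and the dotted bars stay near 0.

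The gene with the widest gap was SCHCODRAFT_02614949. Its log2 RPKM was 0.95, 0.53 and 1.44 in stage 1 primordium replicates 1 to 3, against 4.45, 4.22 and 4.09 in mycelium, 3.11 and 3.67 in stage 2 primordium, 3.55, 3.01 and 3.61 in young fruiting body, and 4.19, 4.55 and 4.40 in fruiting body. The stage 1 primordium libraries did not overlap with any other library, and the gap of 2.41 corresponds to a ratio of 5.31. Its 4 other stages spanned 0.99, just under the limit, with mycelium and fruiting body high and the stages between them lower. In the edgeR fit of unique reads described below it differed by -3.24 ± 0.28 (log2 change ± SE) from mycelium to stage 1 primordium and by 2.40 ± 0.29 from there to stage 2 primordium.

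SCHCODRAFT_02614017, with the second widest gap, was evenly low. It was at 0.63, 0.74 and 0.50 in stage 1 primordium, against 2.62, 2.45 and 2.54 in mycelium, 3.12 and 2.47 in stage 2 primordium, 2.37, 2.69 and 2.94 in the young fruiting body and 2.91, 2.66 and 3.13 in fruiting body. Its SD among the stage 1 primordium libraries was 0.12, on 33, 38 and 27 unique reads, and the 4 other stage means spanned 0.36. SCHCODRAFT_02751843 was the tightest of all in stage 1 primordium, at 0.35, 0.39 and 0.26 (SD 0.07, n = 3), on 31, 34 and 26 unique reads. Its later stages varied more, with 2.72 and 3.20 in stage 2 primordium, 1.605, 1.96 and 2.70 in the young fruiting body and 2.98, 1.71 and 1.61 in fruiting body, after 2.97, 2.88 and 2.79 in mycelium. No library of another stage reached down to stage 1 primordium in either gene. Counting error alone, computed from the read numbers, would give an SD of 0.25 for SCHCODRAFT_02614017 and 0.26 for SCHCODRAFT_02751843. Their SDs in stage 1 primordium lie below that, so the evenness cannot be taken as a trait of these genes.

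SCHCODRAFT_01118385 had a clear low point at a higher level. Its log2 RPKM was 3.10, 2.65 and 3.01 in stage 1 primordium and lay between 4.47 and 5.93 in all 11 other libraries. Unlike most of the genes, it was lowest of the other stages in mycelium (mean 4.62) and highest in fruiting body (mean 5.48). SCHCODRAFT_02598814 was at 0.95, 0.30 and 1.26, below a range of 1.93 to 3.34 elsewhere. SCHCODRAFT_02637334, the shortest transcript of the set at 347 bases, was at 0.97, 0.76 and 1.00 against 1.97 to 3.44, on only 11 to 12 unique reads per stage 1 primordium library. For these 3 genes the groups did not overlap.

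Others among the 10 widest gaps were uneven between stage 1 primordium libraries. SCHCODRAFT_02546243 was at 0.38, -0.66 and 0.93, below every other library, of which the lowest was young fruiting body replicate 2 at 1.15. SCHCODRAFT_02614501 was at 0.79, 0.12 and 1.63, also below every other library, of which the lowest was 2.10. In both genes replicate 2 was lowest and replicate 3 highest.

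SCHCODRAFT_02666440 and SCHCODRAFT_02611161 met the rule on their means, yet their libraries overlapped widely. SCHCODRAFT_02666440 was at 1.96 and 1.91 in stage 1 primordium replicates 1 and 2 and at 4.53 in replicate 3, and its stage 2 primordium libraries were at 2.49 and 6.65. SCHCODRAFT_02611161 was at 0.06, -0.48 and 2.14 in stage 1 primordium, on 7, 5 and 28 unique reads, and ranged from 0.70 to 4.27 in stage 2 primordium and from 1.46 to 6.17 in fruiting body. Without stage 2 primordium replicate 3 the gap of SCHCODRAFT_02666440 changed sign, to -0.31, and that of SCHCODRAFT_02611161 was 0.12. Without stage 1 primordium replicate 3 the same gaps were 2.63 and 2.49.

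The most abundant of the genes was SCHCODRAFT_02699217. It was at 4.93, 4.84 and 5.16 in stage 1 primordium, with 709, 711 and 745 unique reads, and at 6.40, 6.34 and 6.52 in mycelium, 7.59 and 6.66 in stage 2 primordium, 6.98, 5.79 and 6.49 in the young fruiting body and 7.01, 6.71 and 7.19 in fruiting body. Depth was ample here and the groups stood apart, with stage 1 primordium at most 5.16 and every other library at least 5.79. SCHCODRAFT_02624111 was next, at 4.76, 4.55 and 5.42 against 6.04 to 7.00 elsewhere. SCHCODRAFT_02632081 was at 3.43, 3.44 and 4.36 against 4.83 to 6.17. Both kept stage 1 primordium below every other library, with replicate 3 nearest to the rest.

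SCHCODRAFT_01078592, next in level after SCHCODRAFT_02624111, was graded within stage 1 primordium. Its 3 libraries were at 3.07, 4.44 and 5.88, with 186, 513 and 1178 unique reads, so that replicate 3 lay above 5.70, the value of mycelium replicate 1. Its gap of 1.51 was 0.81 without replicate 1 and 2.21 without replicate 3. The low mean of this gene came from 2 of the 3 libraries. SCHCODRAFT_02121093, also among the 5 highest, was at 3.82, 3.70 and 4.32, just below the range of 4.46 to 5.89 elsewhere.

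The flattest of the genes outside stage 1 primordium was SCHCODRAFT_02604379, whose 4 other stage means spanned 0.30. It was at 3.12, 2.79 and 3.09 in stage 1 primordium, against 4.66, 4.63 and 4.97 in mycelium, 4.37 and 4.60 in stage 2 primordium, 3.88, 4.85 and 4.63 in the young fruiting body and 5.02, 4.21 and 4.48 in fruiting body. All other libraries lay above the stage 1 primordium values. SCHCODRAFT_02682261, SCHCODRAFT_02609840, SCHCODRAFT_02590194 and SCHCODRAFT_01294076 followed, with spans of 0.31 to 0.34 and gaps of 1.21 to 1.38. Of these, SCHCODRAFT_02590194 overlapped with other libraries through stage 1 primordium replicate 3, at 2.60 against 1.21 and 1.47 in replicates 1 and 2. SCHCODRAFT_01294076 was the most even of these 4 in stage 1 primordium, at 2.43, 2.67 and 2.34.

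**Figure D2:**
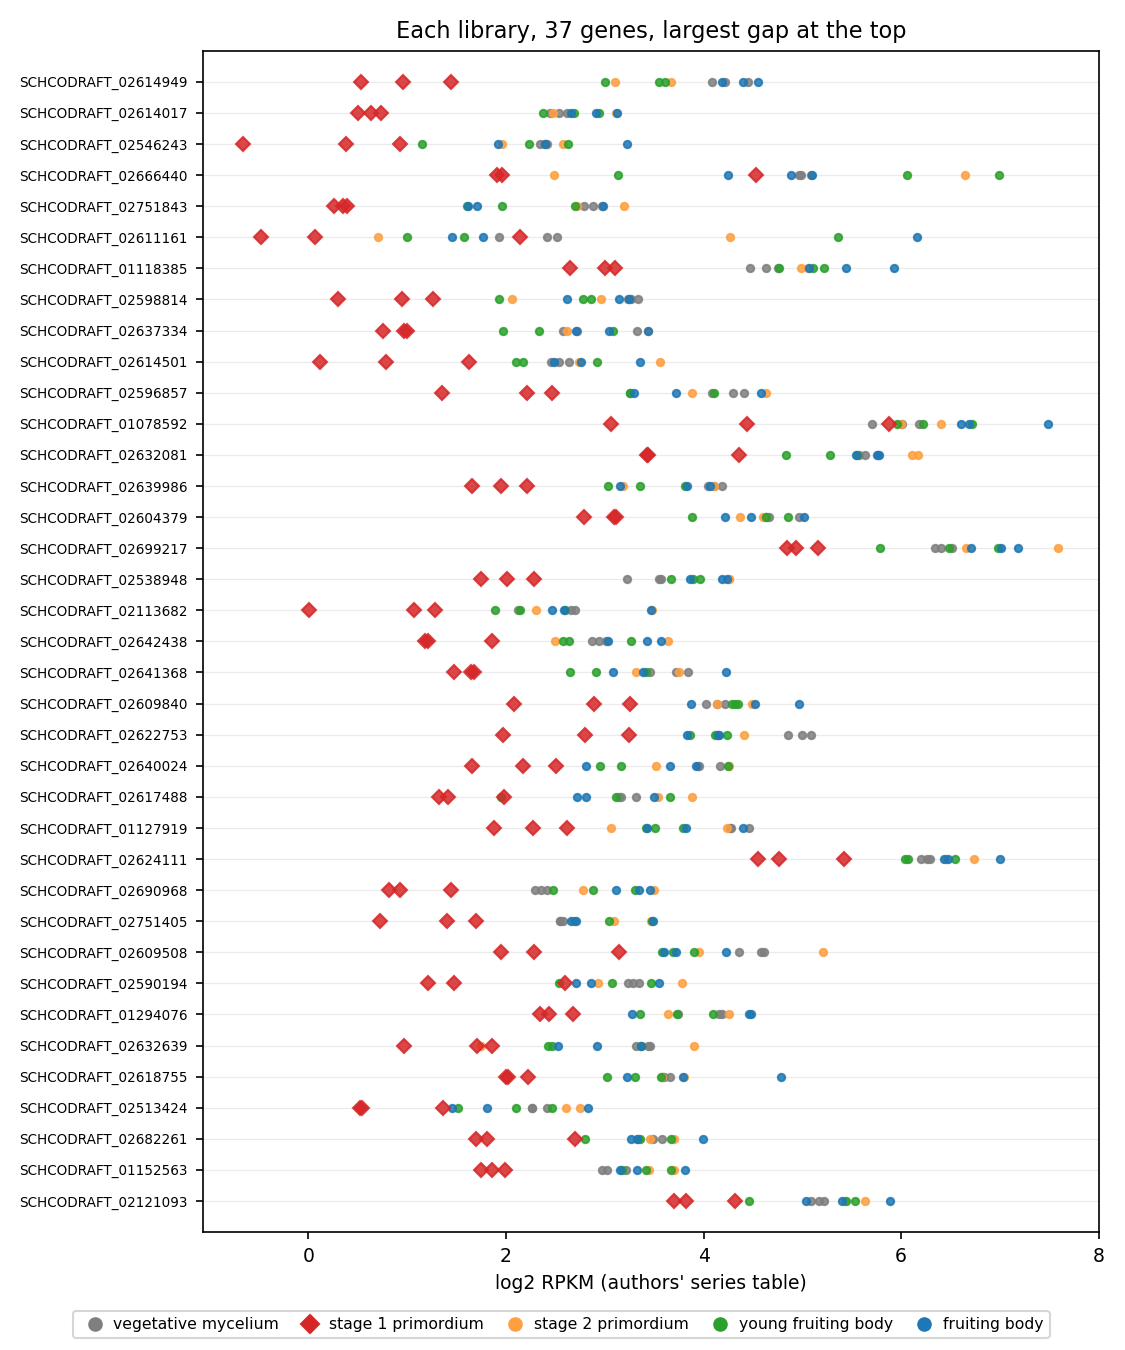
Log2 RPKM in every library for the 37 genes, 1 gene a line, ordered by gap with the widest at the top; red diamonds are the 3 stage 1 primordium libraries and circles the 11 others, coloured by stage. In 31 genes all 3 diamonds lie left of every circle, an order held by 876 of all 14681 genes of the table. In SCHCODRAFT_02666440, SCHCODRAFT_02611161, SCHCODRAFT_01078592, SCHCODRAFT_02590194, SCHCODRAFT_02617488 and SCHCODRAFT_02632639 a diamond lies among the circles.

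In the authors' table, the 3 stage 1 primordium libraries lay below all 11 others in 31 of the 37 genes. That order held in 876 of all 14681 genes of the table. By CPM of unique reads (scaled to library size with TMM factors) this held for 29 of the 35 genes that could be tested, against 6.01% of all 14302 genes tested. The rule used these libraries, so nothing is read from either contrast. The 2 genes not tested, SCHCODRAFT_02639986 and SCHCODRAFT_02640024, had no unique reads. Besides SCHCODRAFT_02666440, SCHCODRAFT_02611161, SCHCODRAFT_01078592 and SCHCODRAFT_02590194, the overlapping genes of the table were SCHCODRAFT_02617488 and SCHCODRAFT_02632639, where young fruiting body replicate 2 (1.95) and stage 2 primordium replicate 2 (1.75) reached just below the highest stage 1 primordium library (1.98 and 1.86).

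Unique reads were also fitted across all genes with edgeR (quasi-likelihood test, Benjamini-Hochberg adjusted p below 0.05, two-sided), and the calls are given as a description, since the rule used each of these contrasts. Against mycelium, 32 of 35 genes were called lower in stage 1 primordium, where 21.4% of all genes were called in that direction and 44.0% in either. Against stage 2 primordium 32 were called lower in stage 1, with 22.2% of all genes in that direction and 41.5% in either. Against young fruiting body it was 28, with 6.80% of all genes in that direction, and against fruiting body 33, with 19.5% in that direction and 33.9% in either. In all 4 comparisons at once 28 of 35 were called, against 2.58% of all genes. SCHCODRAFT_02666440 and SCHCODRAFT_02611161 were called in none of the 4 (edgeR), with standard errors of 1.01 to 1.64 on the log2 scale, and SCHCODRAFT_01078592 in 1, against fruiting body. The same 28 of 35 were called in the 3 comparisons within 1 flow cell, where the share of all genes was 5.49%. Young fruiting body calls were the least settled: 14 of 35 without young fruiting body replicate 3, and 15 and 16 without stage 1 primordium replicates 1 and 2.

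The split of all calls depends on the scaling, which bears on the background shares. Scaled by library total alone, 67.9% of the calls against mycelium were lower in stage 1 primordium (48.7% with TMM), and 32.6%, 78.9% and 75.8% of those against stage 2 primordium, the young and the expanded fruiting body (53.5%, 61.9% and 57.4% with TMM). The median log2 change of all genes from mycelium to stage 1 primordium then moved from 0.02 to -0.30, and that from stage 1 to stage 2 primordium from 0.04 to -0.37.

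The spread between stage 1 primordium replicates comes from the values that chose the genes, and a low mean of 3 libraries can favour genes with scattered values, so it is given as a description. The median SD of the 37 was 0.45 on the log2 scale (n = 3 libraries), against 0.18 over the 8901 genes at the level minimum and 0.25 over the 8331 genes whose stage 1 primordium mean lay in the same range. The SD was above the median of the genes at the level minimum in 29 of the 37. Counting error alone, computed from the read numbers, had a median SD of 0.16 for the 37. In the other stages the median SD of the 37 was 0.09 in mycelium, 0.44 in stage 2 primordium, 0.40 in the young fruiting body and 0.43 in fruiting body, against 0.10, 0.37, 0.31 and 0.32 over the genes at the level minimum. These differences in spread were not tested.

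Replicate 3 was the highest of the 3 in 30 of the 37 genes, against 39.9% of the genes at the level minimum, and replicate 2 was the lowest of all 14 libraries in 27, against 10.0% of the genes at the level minimum. Replicates 1 and 3 were the lowest of all in 7 and 3, against 5.58% and 3.37%. The rule favours a stage 1 primordium library as the lowest, so the counts are a description. Replicate 3 lay at least 1.2 below the lowest other stage mean in 11 genes, replicate 1 in 34 and replicate 2 in 35. The TMM factor of replicate 3 was 0.86, against 0.991 and 1.04 in replicates 1 and 2, and its part in this was not tested. With RPKM from total reads and no scaling factor the medians of the 37 were -1.88, -1.92 and -1.52 in replicates 1 to 3. In the authors' table they were -1.88, -1.99 and -1.32. The gap was met in each of the 3 libraries by 9 genes: SCHCODRAFT_01118385, SCHCODRAFT_02598814, SCHCODRAFT_02604379, SCHCODRAFT_02614017, SCHCODRAFT_02614949, SCHCODRAFT_02637334, SCHCODRAFT_02641368, SCHCODRAFT_02699217 and SCHCODRAFT_02751843.

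Applying the rule without 1 stage 1 primordium library gives that library's values for genes it did not help to choose. Without replicate 1 the rule took 34 genes, and in replicate 1 itself 76.5% of them (26) lay at least 1.2 below each other stage mean, against 1.38% of all flat genes. Without replicate 2 it took 21 genes, of which 18 (85.7%) met the gap in replicate 2, against 1.65% of flat genes. Without replicate 3 it took 65, of which 9 (13.8%) met the gap in replicate 3, against 0.402% of flat genes. The genes lay below each other stage mean, by any amount, in 34 of 34 for replicate 1 and 21 of 21 for replicate 2, against 22.9% and 24.5% of the genes at the level minimum. For replicate 3 this was 61 of 65, against 18.6%, with a median difference of -1.11 from the average of the other stages. The other stages' libraries were part of the choice throughout.

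**Figure D3:**
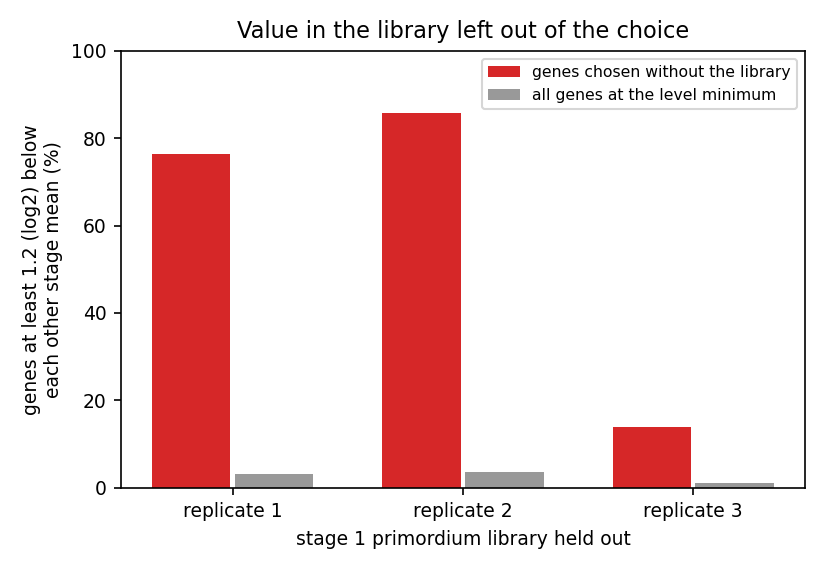
Red bars give the share, in percent, of the genes chosen without a stage 1 primordium library whose value in that library is at least 1.2 (log2) below each other stage mean; grey bars give the same share over the 8901 genes at the level minimum. The red bars stand at 76.5%, 85.7% and 13.8% for replicates 1, 2 and 3, and the grey bars at 3.10%, 3.73% and 1.19%.

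Among the 4 other stages, young fruiting body was the lowest in 24 of the 37 genes, against 11.4% of the genes at the level minimum. The rule held the 4 within 1 of each other, and the differences between these shares were not tested. Mycelium was the lowest in 9 genes (24.3%), against 32.2% of the genes at the level minimum. Stage 2 primordium was the lowest in 3 (8.11%), against 28.1%, and fruiting body in 1 (2.70%), against 28.4%. The young fruiting body libraries differed: medians of the 37 relative to the 4-stage average were -0.36 and -0.44 in replicates 1 and 2 and 0.12 in replicate 3. Counts of the highest stage are a description, as they were not taken over the genes at the level minimum. Stage 2 primordium was the highest of the 4 in 14 genes, fruiting body in 13, mycelium in 9 and young fruiting body in 1. In SCHCODRAFT_02632081, for example, the young fruiting body mean was 5.22, against 5.66 in mycelium, 6.14 in stage 2 primordium and 5.69 in fruiting body.

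As gene models the 37 resembled other expressed genes in length. Their transcripts had a median of 1263 bases, against 1404 for the genes at the level minimum. The gene span exceeded the transcript by a median of 249 bases, against 250, and 6 genes (16.2%) had none to spare, which leaves no room for introns, against 5.34%. Reads with more than 1 placement made up over 5% in 3 genes (8.11%), against 3.74% of the genes at the level minimum. These were SCHCODRAFT_02639986, SCHCODRAFT_02640024 and SCHCODRAFT_02121093, the last with 25.0%. Spans of 9 genes (24.3%) overlapped with that of a neighbouring gene, against 23.6% of the table. The libraries do not mark strand, so reads from the stretch that such neighbours share cannot be told apart.

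SCHCODRAFT_02639986 and SCHCODRAFT_02640024 are both 526 bases long, and 100% of their reads had more than 1 placement. They stand 8 genes apart in the gene table and are uncertain as separate genes, since the placing of reads could split 1 gene's reads over both. Summed over the pair, total reads were 67, 78 and 89 in stage 1 primordium, against 359, 466 and 391 in mycelium, 93 and 308 in stage 2 primordium, 169, 144 and 250 in the young fruiting body and 424, 243 and 211 in the expanded fruiting body. As read numbers, before scaling, stage 2 primordium replicate 2 lay close to stage 1 primordium. In log2 RPKM, which corrects for that library's low scaling factor, it was at 3.183 and 3.52 for the 2 copies, and no other library reached down to stage 1 primordium.

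SCHCODRAFT_02590194, the gene next to the second copy, is itself among the 37 and forms with it the only pair of direct neighbours in the set. Reads with more than 1 placement were 1.35% of its own. At the same locus SCHCODRAFT_02082560, whose span overlaps with that of SCHCODRAFT_02639986, had stage means of 0.62 in stage 1 primordium, against 3.35 in mycelium, 3.02 in stage 2 primordium, 2.29 in the young and 2.31 in the expanded fruiting body, outside the rule by its span. SCHCODRAFT_02082897 lies just before the second copy. Its means were -0.55, 2.91, 2.10, 1.52 and 1.57 in the same order, outside the rule by its level and its span. Between the copies, SCHCODRAFT_0258487 was at 1.55 in stage 1 primordium against 0.43 to 1.48 elsewhere. Reads with more than 1 placement made up 14.6% in SCHCODRAFT_02082560, 30.8% in SCHCODRAFT_02082897 and 40.1% in SCHCODRAFT_0258487. The values of these neighbours may thus hold reads of other genes.

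**Figure D4:**
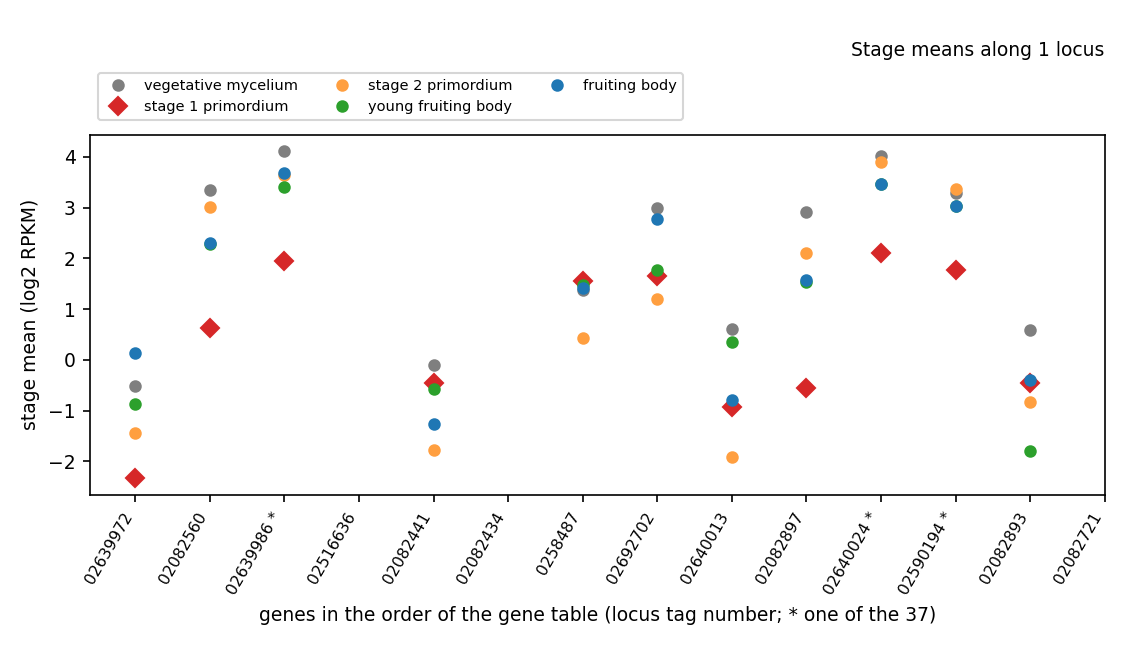
Stage means (log2 RPKM) of the genes around the 2 copies, in the order of the gene table, with stage 1 primordium as red diamonds and an asterisk on the 3 genes that met the rule; positions without points are models outside the authors' table. The diamonds lie below the other stages at SCHCODRAFT_02639972, whose means are all under 0.2, SCHCODRAFT_02082560, SCHCODRAFT_02639986, SCHCODRAFT_02082897, SCHCODRAFT_02640024 and SCHCODRAFT_02590194, and among or above them at the rest. Reads with more than 1 placement made up 14.6% to 100% in the genes plotted, except SCHCODRAFT_02590194 with 1.35%, so the points may share reads.

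Some genes right beside the 37 were also lower in stage 1 primordium than on average elsewhere. Of 44 flanking genes at the level minimum, 13 (29.5%) were lower there by at least 1 than the average of the other stages, against 10.3% of all genes at that level, and 8 of 37 (21.6%) among those whose span did not overlap. SCHCODRAFT_02636103, beside SCHCODRAFT_02751405, was at 4.96 in stage 1 primordium against 7.25 in mycelium, 9.16 in stage 2 primordium, 6.99 in the young and 6.02 in the expanded fruiting body. SCHCODRAFT_02617495, which overlaps with SCHCODRAFT_02617488, was at 2.05 against 4.03, 5.17, 3.69 and 4.06 in that order. The difference was widest for SCHCODRAFT_02749926, beside SCHCODRAFT_02546243, at 3.22 against 3.69, 8.96, 5.79 and 5.49. All 3 were highest in stage 2 primordium. The measure sets no gap to each single stage. SCHCODRAFT_02633726, beside SCHCODRAFT_02690968, was at 4.188 in stage 1 primordium and 4.196 in fruiting body, with 6.33 in mycelium. The differences between the shares were not tested.

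The genes outside the set with stage means most like the median profile of the 37, by Pearson correlation over the 5 stages, were SCHCODRAFT_02557656, SCHCODRAFT_02497084, SCHCODRAFT_01299096, SCHCODRAFT_02638572 and SCHCODRAFT_02189452 (r of 0.995, 0.995, 0.994, 0.992 and 0.992, each over 5 points). SCHCODRAFT_02557656 had a wider gap than any of the 37. Its stage means were 0.88 in stage 1 primordium, against 4.78 in mycelium, 5.44 in stage 2 primordium, 4.17 in the young and 5.33 in the expanded fruiting body, a gap of 3.30, and a span of 1.27 kept it out. The other 4 missed the gap, at 0.71 to 1.00. Without stage 2 primordium replicate 3 the gap of SCHCODRAFT_01299096 was -0.40, and without replicate 2 that of SCHCODRAFT_02497084 was 0.58.

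Of the 20 models with a symbol, which cover hydrophobins, regulators of fruiting, mating type B genes and a few others, 18 were in the table and 0 met the rule. Stage 1 primordium was the lowest stage in 0 of the 18. WC1, the blue light receptor gene, was at 4.70 in stage 1 primordium and 4.39 in mycelium, against 6.30 in stage 2 primordium, 5.08 in the young and 5.24 in the expanded fruiting body.

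Which genes meet the rule depended on the scaling and on single libraries. With each of the 14 libraries left out in turn, stage 1 primordium had the lowest mean in 37 of 37 genes in 13 cases, and in 36 without stage 2 primordium replicate 3, the exception being SCHCODRAFT_02666440. With RPKM from total reads and no scaling factor, and likewise on log2 TPM, it had the lowest mean in 37 of 37. The genes were chosen for that order in these same libraries, which largely fixed it, so these counts are a description. On the RPKM without a factor, the gap was met in 27, but the 4 other stages stayed within 1 in 24, and 17 met the whole rule. With no scaling factor the median of the 37 in stage 2 primordium replicate 2 was -0.72 relative to the 4-stage average. With unique reads and TMM factors 34 of the 37 met the whole rule, and with DESeq2 size factors 32. Leaving out single libraries, the rule found between 19 genes (without young fruiting body replicate 3) and 65 (without stage 1 primordium replicate 3). It found 21 without stage 1 primordium replicate 2, 58 without stage 2 primordium replicate 2 and 56 without young fruiting body replicate 2. SCHCODRAFT_02538948, SCHCODRAFT_02604379, SCHCODRAFT_02614017, SCHCODRAFT_02637334 and SCHCODRAFT_02639986 met the rule without each of the 14 libraries in turn, and the other 32 dropped out at least in 1 case.

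**Figure D5:**
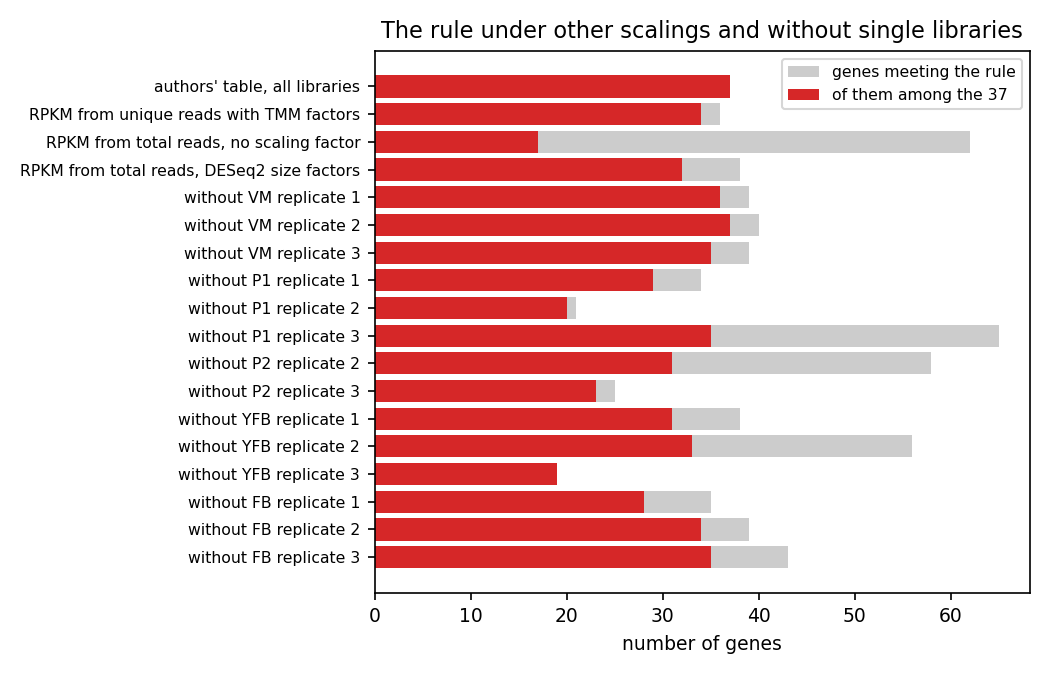
Bars give the number of genes that meet the rule (grey) and how many of them are among the 37 (red), for the authors' table, 3 other scalings and each library left out, with P1, P2, YFB, FB and VM for the stages as above. The total runs from 19 to 65, and the red part is smallest, at 17, with no scaling factor.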

How the data were processed

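The authors deposited raw read counts per transcript model in each library file (unique and total gene reads), TPM, and 1 series table of log2 RPKM. Per the submitters' processing notes R 3.0.2, edgeR 3.4.2 and limma 3.18.13 were used, with no roles given. Aligner, counter and build: not given in the sources used here, beyond the Schco3 tag of the IDs. The deposited log2 RPKM values follow total gene reads (SD around them 0.000873 to 0.000965 over models with at least 200 reads, after an offset per library of -0.273 to 0.863, which appears to be a composition factor). The deposited TPM served as an alternative scale. Per the file headers there is also an RPKM column, which was 0 throughout in 14 files and was not used.

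Model IDs were matched to locus tags by number, with an offset of 287 for the larger IDs (14009 matches, next best offset 1180), which was inferred from the files with no map to check it against. All 37 genes matched. The rule was applied to stage means of the series table. Unique reads were fitted in R 4.3.3 by edgeR 4.0.16 (TMM, low genes removed by filterByExpr with stage as group, robust quasi-likelihood fit over all 14 libraries, Benjamini-Hochberg over 14302 genes), with an SE equal to the size of the log2 change over the square root of F. The scripts were tested on simulated data. The labels number the replicates and do not say that they came from separate cultures, so p-values measure only the spread between these libraries, which may be technical. The genes, lists and comparisons were chosen with earlier results of these data known. Named genes are the 10 widest gaps, 5 highest levels, 5 smallest spans, 3 on each side of the threshold, direct neighbours and the 5 most alike outside; genes of the shared locus, flanking genes, those overlapping between libraries and those met in all libraries were named after their values were seen. Protein and promoter features that had been planned were not analysed here.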

Additional observations from a re-analysis of the deposited data

How the results depend on the processing

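The number of genes meeting the rule was 37. It was 62 with no scaling factor (17 shared with the 37), 62 on log2 TPM (11 shared), 22 with a pseudocount of 1, 102 with no level minimum and 10 with a minimum of 4. It was 74 with a gap of 1, 12 with 1.5, 23 with a span of 0.75, 81 with 1.5, and 165 with mycelium left out of the rule. The TPM setting and the next 2 were chosen after seeing the data: 91 genes with stage 2 primordium replicate 2 and stage 1 primordium replicate 3 both left out, and 9 with the gap required in each stage 1 primordium library. Leaving out 1 library gave 19 to 65. Apart from the rule's own limits, which set the count by construction, the cause of these changes was not tested. Gaps with 1 library left out were computed for 29 of the named genes, taken by gap, level, span, threshold and likeness. SCHCODRAFT_02639986 and SCHCODRAFT_02640024 were not among them. Of these 406 gaps, 2 changed sign, both without stage 2 primordium replicate 3: SCHCODRAFT_02666440 (range -0.31 to 2.63) and SCHCODRAFT_01299096 (range -0.40 to 1.29).

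Over all genes, stage 2 against stage 1 primordium had 5930 calls, 3939 with the 2 stages fitted alone and 3069 to 6637 without 1 library. Young fruiting body against stage 1 primordium had 1571, 2487 with DESeq2, 961 with the 2 stages alone and 558 to 2372 without 1 library. Of the 35 tested genes 28 were called in the latter, 20 with the 2 stages alone and 14 to 31 without 1 library. A replicate block gave 32, 32, 27 and 33 calls against mycelium, stage 2 primordium, the young and the expanded fruiting body (32, 32, 28 and 33 without it). Deviations of same-numbered libraries from their stage means correlated at -0.237 to 0.191. The labels do not say whether such libraries share a culture or preparation, and the pairing was not used. With 1 stage 2 library left out, the lone sample is assumed to vary like the other stages. Depth limits 22 genes with fewer than 100 unique reads in a stage 1 primordium library (the 2 genes with no unique reads left aside, as their reads had more than 1 placement), SCHCODRAFT_02611161 (5 to 28) and SCHCODRAFT_02637334 (11 to 12) among them.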
